A study of Mus musculus with 3 samples.

Results

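Rab proteins are small GTPases that mark the membranes of the cell and steer vesicle traffic between them. Each cycles between a GTP-bound form, which recruits motors, tethers and other effectors to its membrane, and a GDP-bound form, which is carried in the cytosol. Exchange factors switch a Rab on, GTPase-activating proteins switch it off, and prenylation by a dedicated transferase and escort protein lets it hold to the membrane. In macrophages, Rabs of the early endosome, the late endosome and the Golgi act in turn while a particle taken up by phagocytosis matures into a digestive compartment. Red pulp macrophages use that route to clear aged red blood cells.

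The Rab genes were chosen by symbol alone, as those annotated as Rab followed by a number, with at most 1 letter and 1 further digit. Genes whose names only begin with Rab, such as those for effectors and regulators, were not counted among them. The rule found 59 of the 18193 genes on the array, measured by 132 probe sets, and it used no expression value. Where a gene had several probe sets, its log2 level was read from the one that was brightest on average across the arrays. A probe set is a group of oligonucleotides on the array that report 1 transcript region.

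RNA came from 3 populations sorted from the spleens of adult mice of genotype Spic(igfp/+), in which 1 Spic allele carries a green fluorescent protein reporter. Monocytes positive for CD11b and Ly6C were divided into cells without the reporter (Spic-negative monocytes) and with it (Spic-positive monocytes), and red pulp macrophages were sorted as high for F4/80 and for the reporter. All 3 groups carry the reporter allele, so none is fully wild type for Spic, the transcription factor that red pulp macrophages need. Strain, sex and the number of animals behind each array are not given in the sources used here. Each population had 1 array, so every difference below compares 2 arrays and not 2 conditions, there is no replicate check, and no test was run. A level was counted as measured when it exceeded a floor of log2 5.02, which is the median level on the array once controls are set aside. Differences were counted from 2-fold upwards, which is 1 on the log2 scale.

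Markers of the populations and of other cells give the setting for the Rab values. The summed signal of 10 red pulp macrophage genes was log2 11.75 on the Spic-negative monocyte array, 12.74 on the Spic-positive array and 16.23 on the macrophage array, and the corresponding sums over 6 monocyte genes were 15.17, 14.73 and 13.96. Csf1r, 1 of these 6, measured 13.65, 13.55 and 13.83 and so carried most of the sum on the macrophage array. The median monocyte gene stood at 12.68, 12.09 and 7.29. The macrophage array also carried erythroid transcripts: 9 of 10 lay above the floor there, against 2 and 4 on the Spic-negative and Spic-positive arrays, with summed signals of log2 13.72, 7.96 and 8.22. The erythroid membrane gene Slc4a1 stood at 11.32 in macrophages and below the floor in both monocyte populations. For B cell genes, 8 of 12 members were above the floor on the Spic-negative array, 12 on the Spic-positive array and 11 on the macrophage array, with summed signals of log2 11.81, 13.40 and 14.73. Ighm alone measured 11.47, 12.97 and 14.49, and the median B cell gene was brightest on the Spic-positive array, at 5.78, 7.80 and 7.01. Dendritic cell genes were brightest on the Spic-positive array, with 4, 6 and 6 of 7 above the floor and summed signals of log2 9.72, 11.47 and 10.06. Sums of NK cell genes (2, 2 and 5 of 5 above the floor) and platelet genes (2, 3 and 4 of 5) were highest on the macrophage array, at 7.22, 7.25 and 10.46 and at 7.91, 8.17 and 10.36. The platelet sum there came mostly from Pf4 and Ppbp (8.94 and 9.23), while Gp9 and Gp6 were brightest on the Spic-positive array. T cell genes (3, 4 and 7 of 7) had sums of 8.49, 8.66 and 9.50. Genes of endothelium and stroma (3, 3 and 4 of 7) had sums of 7.86, 8.60 and 8.42. Neutrophil genes were bright on all 3 arrays, with 6, 6 and 5 of 6 above the floor and sums of 14.87, 15.03 and 14.91. Plasma cell genes (5, 5 and 6 of 6 above the floor) had sums of 13.21, 13.15 and 13.81. The arrays also differed in 18 hybridization control probe sets, whose median difference was log2 2.16 for Spic-positive minus Spic-negative monocytes and 0.07 for macrophages minus Spic-negative monocytes. Whether other cells or these array differences have a part in the Rab values was not tested.

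Of the 59 Rab genes, 51 lay above the floor on at least 1 array, 43 of them on all 3, and 8 lay below it on every array. Those 8 were Rab3c, Rab9b, Rab17, Rab27b, Rab33a, Rab39b, Rab40b and Rab42. By array, 44 Rab genes were above the floor on the Spic-negative monocyte array, 48 on the Spic-positive array and 50 on the macrophage array. For 32 of the 51 the levels on the 3 arrays lay within 2-fold of each other, and for 22 within 1.5-fold. The brightest array was that of Spic-negative monocytes for 23 genes, macrophages for 19 and Spic-positive monocytes for 9. The other 19 genes spanned 2-fold or more, and they are described below by the site where the protein acts.

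**Figure D1:**
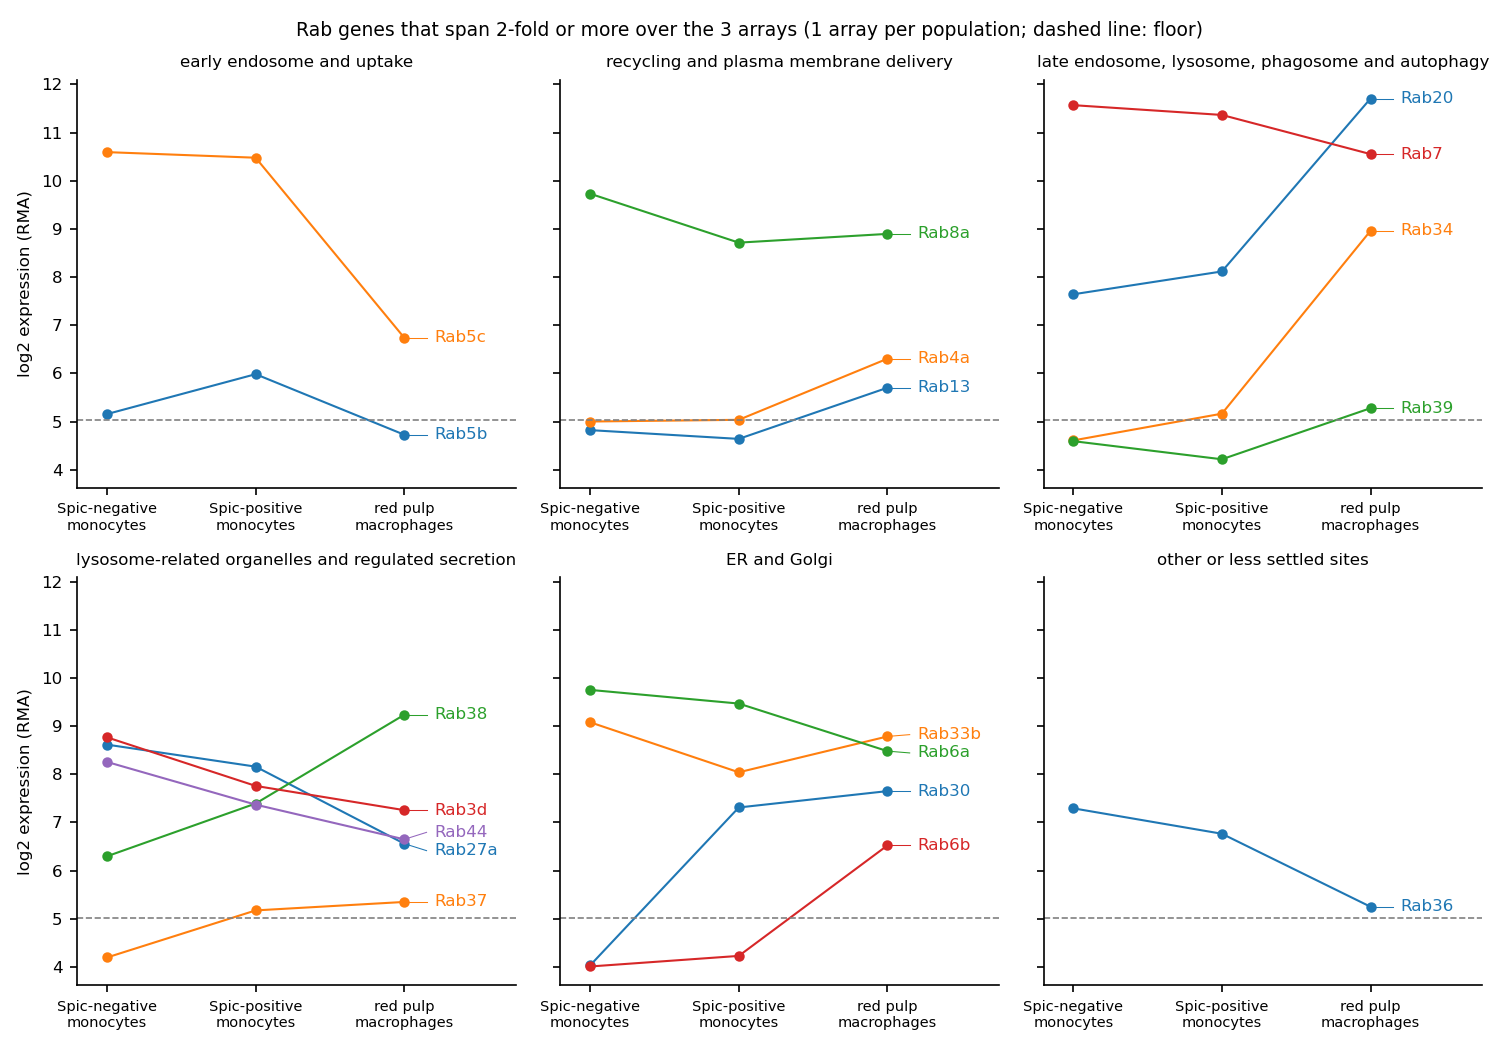
Log2 expression (RMA) of the 19 Rab genes that span 2-fold or more over the 3 arrays, in panels by site of action, with 1 point per array joined by lines for reading only and the floor of log2 5.02 as a dashed line. Rab20 and Rab34 climb from the monocyte arrays to macrophages, Rab5c drops to 6.74, and Rab30 is already at 7.31 in Spic-positive monocytes.

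The clearest difference among monocytes was in Rab30, and macrophages differed most in Rab34, Rab20 and Rab5c. Rab30 measured log2 4.03 on the array of Spic-negative monocytes, 7.31 on that of Spic-positive monocytes and 7.65 on that of macrophages. Rab20 measured 7.64, 8.12 and 11.71, and Rab34 measured 4.61, 5.16 and 8.96, in the same order of arrays. Rab5c measured 10.59, 10.48 and 6.74. In sorted bulk RNA, a change in the share of cells cannot be told apart from a change in RNA per cell. On these arrays Rab30 was high on both arrays of Spic-expressing cells, Rab20 and Rab34 were high only in macrophages among these 3 arrays, and Rab5c was low only there.

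Between the monocyte arrays, 2 of 51 Rab genes (3.92%) were higher in Spic-positive cells by 2-fold or more, beside 3.49% of the 12375 genes above the floor, and 3 were at least 2-fold lower (5.88%), beside 3.06% of all genes. The median difference was -0.17 for Rab genes and -0.06 for all genes. With so few genes these shares lie near the background, and they show no result about the family. The 3 lower genes were Rab33b, Rab8a and Rab3d, and all lay within 0.04 of the 2-fold line. None of these 3 passed 2-fold after a second quantile normalization or cyclic loess, which left 2 genes higher and 0 lower. The shares of all genes higher and lower were then 3.71% and 2.36%, and 3.61% and 2.10%.

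Against Spic-negative monocytes, macrophages had 7 Rab genes at least 2-fold higher (13.7%), beside 19.6% of all genes, and 7 lower (13.7%), beside 11.3%. The medians were -0.04 for Rab genes and 0.03 for all genes. At 4-fold, 5 Rab genes were higher (9.80%) and 3 lower (5.88%), beside 7.38% and 2.63% of all genes. Against Spic-positive monocytes, 7 were higher (13.7%), beside 22.0% of all genes, and 4 lower (7.84%), beside 11.6%, with medians of 0.14 and 0.10. The macrophage array enters both comparisons, which are therefore not independent, and on it the median erythroid gene stood at log2 9.91, against 4.63 and 4.83 on the monocyte arrays. At 2-fold the share of Rab genes that were higher lay below the background in both comparisons. It rests on 7 genes in each, on single arrays, and is not read as different from the background. At 4-fold against Spic-negative monocytes the share was 9.80% beside 7.38%, but it rests on 5 genes. Among these 5, Rab6b was at least 2.83-fold higher with the monocyte level set to the floor, a bound under 4-fold. The 4-fold shares were not recomputed at the floor, so the 4-fold share is not read as different from the background. With levels below the floor set to the floor, the 2-fold counts became 6 higher and 7 lower than in Spic-negative monocytes, and 5 and 3 against Spic-positive ones. The shares of all genes were then 17.9% and 10.6%, and 20.6% and 9.47%. The groups by site of action hold 5 to 13 measured genes each, so their counts below are descriptions, and none is read as different from the background.

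**Figure D2:**
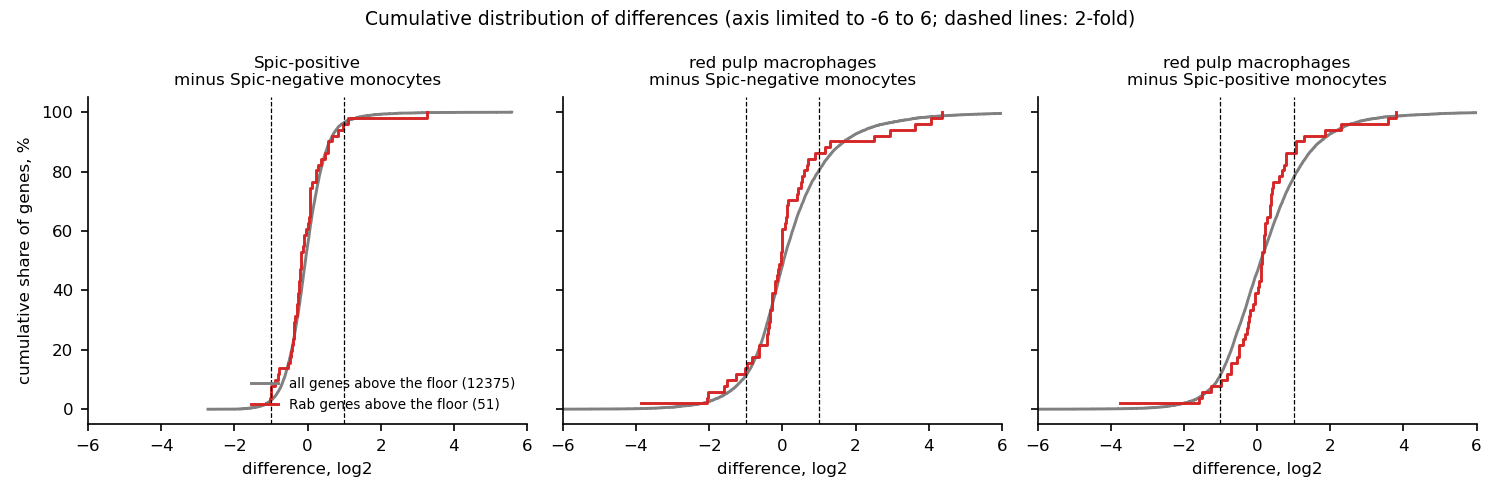
Cumulative share of genes (%) by log2 difference in each of the 3 comparisons, for the 51 Rab genes above the floor (red) and all 12375 genes above it (grey), with 2-fold as dashed lines. The 2 curves run close together between the monocyte arrays, and in macrophages the Rab curve is steeper around 0, with fewer genes past 2-fold upwards (13.7% against 19.6% and 22.0%). The 13.7% is 7 genes in each comparison and is not read as different from the background.

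Rabs of the late endosome, lysosome, phagosome and autophagy held the 2 largest increases. Of 7 measured genes, 2 were at least 2-fold higher and 1 lower in macrophages than in Spic-negative monocytes, beside 19.6% and 11.3% of all genes. Against Spic-positive monocytes, 3 were higher and 0 lower, beside 22.0% and 11.6%, and the third of these, Rab39, rests on levels near the floor. Rab34, which acts in macropinocytosis and in the fusion of phagosomes with lysosomes, was higher in macrophages by log2 4.35 than in Spic-negative monocytes, where it lay below the floor, and so at least 15.3-fold higher when the monocyte level is set to the floor. It was higher by 3.80 (13.9-fold) than in Spic-positive monocytes. Its further probe set lay below the floor on both monocyte arrays and reached 8.19 in macrophages, higher by at least 3.17. Rab20, found on endosomes and on maturing phagosomes in macrophages, was higher by 4.06 (16.7-fold) and 3.59 (12.0-fold) on its single probe set.

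The other genes of this group differed less. Rab7, the central Rab of late endosomes and lysosomes, measured log2 11.57, 11.37 and 10.55 on the same 3 arrays. It was lower in macrophages than in Spic-negative monocytes by 1.02 in size (2.02-fold), just past 2-fold, and its further probe set gave -1.19. Rab7b, which acts between late endosomes and the Golgi, differed by -0.97 and Rab24, an atypical Rab linked to autophagy, by -0.40. Rab9, which carries cargo from late endosomes back to the Golgi, differed by 0.59. Rab39, which acts on phagosomes and the Golgi, was just above the floor at 5.28 in macrophages and below it on the monocyte arrays, so its difference of 1.06 from Spic-positive monocytes shrinks to 0.25 against the floor.

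The promoters of Rab34 and Rab20 are shown because these genes had the 2 largest differences among Rab genes and both were high on the macrophage array. Each window runs from 250 bases before to 50 bases after a start, 5′ to 3′ on the strand of the gene, from RefSeq on GRCm38.p6. Rab34 has 2 starts in the table, at chr11:78188177-78188476 and chr11:78188498-78188797 (plus strand), and Rab20 has 1, at chr8:11478591-11478890 (minus strand). Capitals mark matches, on either strand, to 4 motifs: GAGGAA, a purine-rich core of the kind bound by PU.1 and Spi-C, TGACNNNGC, the core of the antioxidant response element, CACGTG, the E-box inside the lysosomal CLEAR element, and TGANTCA, the AP-1 core that also lies inside Maf recognition elements.
Rab34, first start: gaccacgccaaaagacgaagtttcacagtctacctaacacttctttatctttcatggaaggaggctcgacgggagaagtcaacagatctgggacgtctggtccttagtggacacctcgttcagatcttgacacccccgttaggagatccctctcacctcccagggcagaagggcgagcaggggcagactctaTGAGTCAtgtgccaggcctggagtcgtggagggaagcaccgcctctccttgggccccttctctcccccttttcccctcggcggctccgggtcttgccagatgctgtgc
Rab34, second start: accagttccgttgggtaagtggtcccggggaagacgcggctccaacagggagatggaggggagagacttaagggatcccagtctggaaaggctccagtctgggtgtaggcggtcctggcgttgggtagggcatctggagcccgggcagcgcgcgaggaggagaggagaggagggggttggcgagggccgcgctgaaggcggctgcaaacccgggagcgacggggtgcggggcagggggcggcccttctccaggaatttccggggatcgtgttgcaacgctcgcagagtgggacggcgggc
Rab20: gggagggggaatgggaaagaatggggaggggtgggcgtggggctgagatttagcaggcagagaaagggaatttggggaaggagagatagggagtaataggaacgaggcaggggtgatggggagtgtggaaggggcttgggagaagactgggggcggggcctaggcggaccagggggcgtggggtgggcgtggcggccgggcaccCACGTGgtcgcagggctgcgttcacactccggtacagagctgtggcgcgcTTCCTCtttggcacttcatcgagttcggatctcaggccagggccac

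The first Rab34 window holds 1 match, TGAGTCA, whose first base lies at -58 from the start, and the second holds none. The Rab20 window holds CACGTG from -46 and TTCCTC, the reverse strand of GAGGAA, from base 5 after the start. These motifs did not overlap in the printed windows. TGANTCA was added to the search after the letters of Rab34 were seen. Over all 32851 promoters of this length, 28.3% held GAGGAA, 12.4% TGACNNNGC, 7.15% CACGTG and 7.81% TGANTCA. Over 60 windows of the 48 Rab genes in the table, the motifs stood in 11, 10, 6 and 3. A match describes the letters of a window and shows no binding. Rab30 is not among the 48.

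Among 6 early endosome Rabs, Rab5c stood far lower in macrophages, and Rab5b was the other gene past 2-fold in any comparison. The counts were 0 higher and 1 lower against Spic-negative monocytes, beside 19.6% and 11.3% of all genes, and 0 and 2 against Spic-positive monocytes, beside 22.0% and 11.6%. Rab5 proteins drive the fusion of incoming vesicles into early endosomes, and mammals have 3 close copies. Rab5c was lower in macrophages by 3.85 in log2 size (14.5-fold) than in Spic-negative monocytes and by 3.74 (13.3-fold) than in Spic-positive monocytes, on its single probe set. Rab5a measured log2 10.20, 9.81 and 10.09 on the arrays of Spic-negative monocytes, Spic-positive monocytes and macrophages, a span under 2-fold. Rab5b measured 5.16, 5.98 and 4.73, within 2-fold of the floor on every array. Its difference of -1.26 between macrophages and Spic-positive monocytes was -0.96 with the macrophage level set to the floor and -0.87 as the mean of its probe sets, and so under 2-fold.

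The remaining genes of early uptake stayed within 2-fold over the 3 arrays. Rab21, which escorts integrins during endocytosis, differed by -0.21 between macrophages and Spic-negative monocytes. Rab22a, which acts between early and recycling endosomes, differed by 0.11, although a further probe set gave -1.05. Rab31, which runs between the Golgi and endosomes, differed by -0.62, and its dimmer probe set, below the floor in monocytes, gave 0.66 with those levels set to the floor. Thus for Rab22a and Rab31 the direction in macrophages depends on the probe set.

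Of 13 measured Rabs of recycling and delivery to the plasma membrane, 12 differed by less than 2-fold between macrophages and Spic-negative monocytes, 1 was higher and 0 were lower, beside 19.6% and 11.3% of all genes. The gene that was higher was Rab4a, which returns receptors quickly from early endosomes to the surface. It measured log2 5.00, 5.04 and 6.30, with both monocyte levels near the floor, and was higher in macrophages by 1.30 and 1.27 than in Spic-negative and Spic-positive monocytes. A second Rab4a probe set measured 3.09, 3.09 and 5.57, a difference of 0.54 with the monocyte levels set to the floor. Its copy Rab4b measured 9.36, 8.95 and 8.72 and differed by -0.65 from Spic-negative monocytes.

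Rab8a, which carries cargo from the Golgi to the plasma membrane, was the gene of this group past 2-fold between the monocyte arrays. It measured log2 9.73, 8.71 and 8.90, a difference of -1.02 between Spic-positive and Spic-negative monocytes, and -0.20 as the mean of its probe sets. Rab13, a Rab of tight junctions and the cell surface, measured 4.82, 4.64 and 5.70. Its difference of 1.06 between macrophages and Spic-positive monocytes was 0.68 with the monocyte level set to the floor. On their brightest probe sets the other recyclers differed by less than 2-fold: between macrophages and Spic-negative monocytes Rab11a gave -0.01, Rab11b 0.15, Rab10 -0.42, Rab35 -0.37, Rab8b -0.16 and Rab14 0.52. Dimmer probe sets above the floor on all arrays gave -1.09 for Rab11a, -1.23 for Rab11b and -1.15 for Rab10, so for these genes the result depends on the probe set. Rab14, a Rab of endosomes and of phagosomes, had 7 probe sets, and between macrophages and Spic-positive monocytes they ran from -1.17 to 1.56.

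Rabs of lysosome-related organelles and regulated secretion had members on either side of 2-fold. Of 9 measured genes, macrophages had 2 at least 2-fold higher and 3 lower than Spic-negative monocytes, beside 19.6% and 11.3% of all genes. Rab38, known from the biogenesis of melanosomes and other lysosome-related organelles, measured log2 6.30, 7.39 and 9.24, so it increased in steps over the 3 arrays. Spic-positive monocytes exceeded Spic-negative ones by 1.10 (2.14-fold), and it was higher in macrophages than in Spic-negative monocytes by 2.94 (7.66-fold). Its second probe set gave 0.86 and 2.38. As the mean of both probe sets the monocyte difference was 0.98, just under 2-fold. Rab32, which shares organelles and partners with Rab38, measured 10.35, 10.18 and 10.07 and stayed within 2-fold.

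Rab27a, which docks secretory lysosomes and granules at the plasma membrane, measured log2 8.62, 8.16 and 6.56 and was lower in macrophages by 2.06 in size (4.16-fold) than in Spic-negative monocytes and by 1.60 (3.03-fold) than in Spic-positive monocytes. Its 3 further probe sets lay below the floor on every array. Rab44, a large Rab of immune cell granules, measured 8.26, 7.37 and 6.65 and differed by -1.61 between macrophages and Spic-negative monocytes. Rab3d, a Rab of secretory granules, measured 8.77, 7.76 and 7.26 and differed by -1.51. Rab44 and Rab3d, like Rab27a, stood lowest in macrophages and highest in Spic-negative monocytes. The Rab3d probe sets disagreed: of the further ones above the floor, 1 gave -0.63 and another 0.55, and their mean with the others was -0.34.

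Rab37, a Rab of mast cell and neutrophil secretion, also depended on the probe set. Its brighter one measured log2 4.20, 5.17 and 5.35, a difference of 1.15 between macrophages and Spic-negative monocytes that shrinks to 0.33 against the floor. The other measured 3.84, 3.65 and 6.52, and so lay above the floor on the macrophage array alone. Rab3a, Rab3b and Rab26, Rabs of regulated secretion, differed by less than 2-fold in all 3 comparisons.

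Of 11 measured Rabs of the endoplasmic reticulum and Golgi, 1 was higher and 1 lower between the monocyte arrays, beside 3.49% and 3.06% of all genes. Against Spic-negative monocytes, macrophages had 2 higher and 1 lower, beside 19.6% and 11.3%. Rab30, a Golgi Rab that is also drawn to autophagosomes around bacteria, stood 3.28 higher on the log2 scale in Spic-positive monocytes than in Spic-negative ones. As the Spic-negative level lay below the floor, this is at least 4.89-fold. In macrophages it was higher than in Spic-negative monocytes by 3.62, at least 6.18-fold, and differed by 0.34 from Spic-positive monocytes, under 2-fold. Both differences from Spic-negative monocytes stayed past 2-fold in 9 recomputations with other probe set, scaling and floor settings, and ran from 2.05 to 3.42 and from 1.86 to 3.68. Not all of these could change the Rab30 values. Removing the floor, raising it, or dropping probe sets with the suffixes _x_at and _s_at left them as they were. The mean and the median of its 2 probe sets are the same number. Its other probe set was below the floor on all arrays. B cell genes were also higher on the Spic-positive array, with medians of log2 5.78, 7.80 and 7.01 over the 3 arrays. Dendritic cell genes had medians of 5.85, 7.07 and 6.61, but their members went both ways between the monocyte arrays. Ccr7, Itgax, Zbtb46 and Siglech differed by 4.05, 3.14, 1.25 and 0.69, and Flt3, Xcr1 and Cd209a by -0.56, -0.52 and -0.34. The part of either list in the Rab30 signal was not tested.

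The Rab6 pair turned opposite ways. Rab6a, which carries vesicles within and out of the Golgi, measured log2 9.75, 9.47 and 8.48 and was lower in macrophages by 1.27 in size (2.41-fold) than in Spic-negative monocytes, with further probe sets at -1.28 and -1.64. Rab6b, the copy best known from brain, measured 4.01, 4.23 and 6.52. It was at least 2.83-fold higher in macrophages than in either monocyte population, with the monocyte levels set to the floor. Among its further probe sets, the 1 above the floor measured 4.07, 3.44 and 6.01, a difference of at least 0.99, which does not by itself reach 2-fold. Rab33b, a Golgi Rab that binds the autophagy protein ATG16L1, measured 9.08, 8.04 and 8.79, lowest in Spic-positive monocytes.

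On their brightest probe sets, the Rabs of the early secretory route stayed within 2-fold in macrophages. Rab1a and Rab1b, which act from the endoplasmic reticulum to the Golgi, differed by 0.40 and 0.00 between macrophages and Spic-negative monocytes. Rab2a, which acts between the endoplasmic reticulum and the Golgi, differed by -0.20, and Rab18, a Rab of the endoplasmic reticulum and lipid droplets, by 0.14. Rab43 differed by -0.04, Rab2b by 0.71 and Rab19 by 0.54. A second, dimmer probe set of Rab18 measured 5.44, 3.77 and 5.78, which is 0.76 between macrophages and Spic-positive monocytes with the monocyte level set to the floor, where the brighter gave 0.38.

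Among 5 measured Rabs of other or less settled sites, 1 was lower in macrophages than in Spic-negative monocytes and 0 were higher, beside 11.3% and 19.6% of all genes. Rab36, a relative of Rab34 that shares its binding to the lysosomal effector RILP, measured log2 7.29, 6.77 and 5.25. It was lower in macrophages by 2.04 in size (4.12-fold) than in Spic-negative monocytes and by 1.52 (2.86-fold) than in Spic-positive monocytes, and its second probe set above the floor gave -1.76 and -1.48. Rab34 and Rab36 thus ran in opposite directions between monocytes and macrophages. Rab28 and Rab23, both linked to cilia, differed by 0.43 and -0.27 between macrophages and Spic-negative monocytes. Rab29, a partner of the kinase LRRK2, and Rab40c, which joins a ubiquitin ligase, differed by -0.03 and 0.12.

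**Figure D3:**
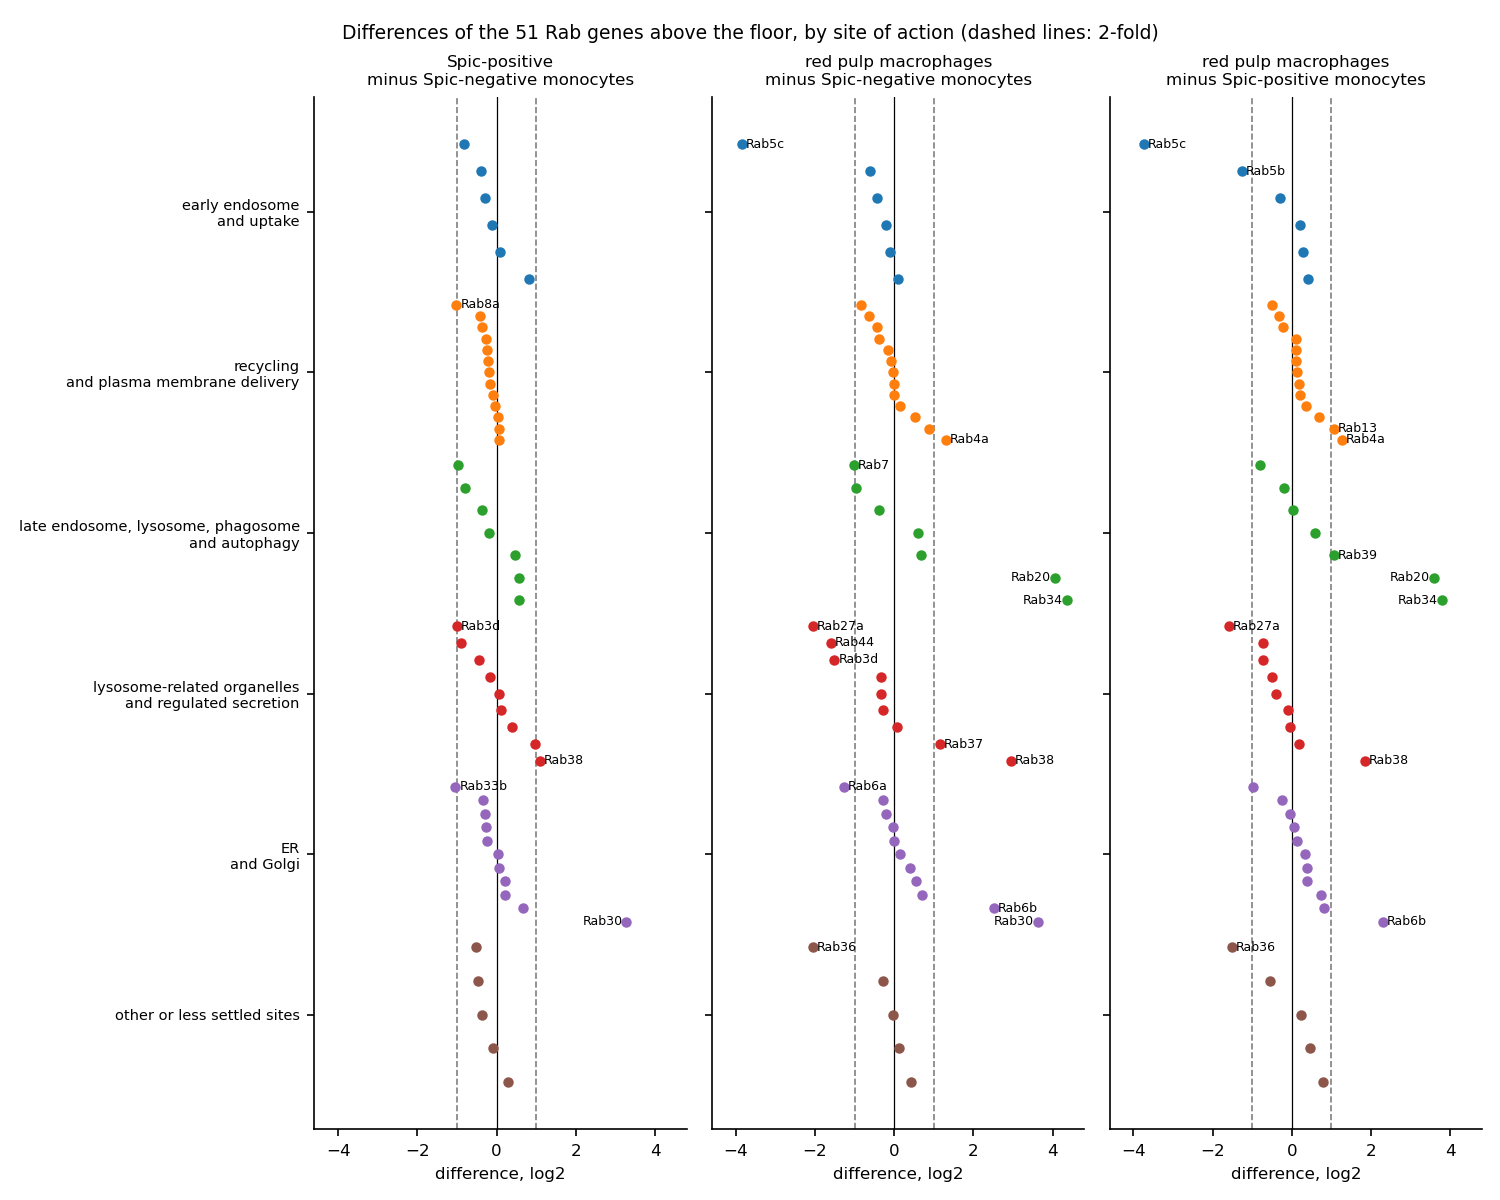
Log2 difference of each of the 51 Rab genes above the floor, 1 point per gene, by site of action and comparison, with names for genes past 2-fold (dashed lines) and levels as deposited, also below the floor. Between the monocyte arrays Rab30 stands alone at 3.28, and in macrophages Rab34, Rab20, Rab38 and Rab6b lie to the right and Rab5c at -3.85 and -3.74 to the left.

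Some close relatives parted on the macrophage array and others did not. Relative to Spic-negative monocytes, Rab5c gave -3.85 where Rab5a gave -0.11, Rab38 gave 2.94 where Rab32 gave -0.28, and Rab4a gave 1.30 where Rab4b gave -0.65. Rab6b was at least 2.83-fold higher where Rab6a gave -1.27, and Rab34 gave at least 3.94 and Rab36 -2.04. Rab7 and Rab7b gave -1.02 and -0.97, Rab8a and Rab8b -0.83 and -0.16, and Rab11a and Rab11b -0.01 and 0.15. These pairs were picked after their values were seen, and they describe single arrays.

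**Figure D4:**
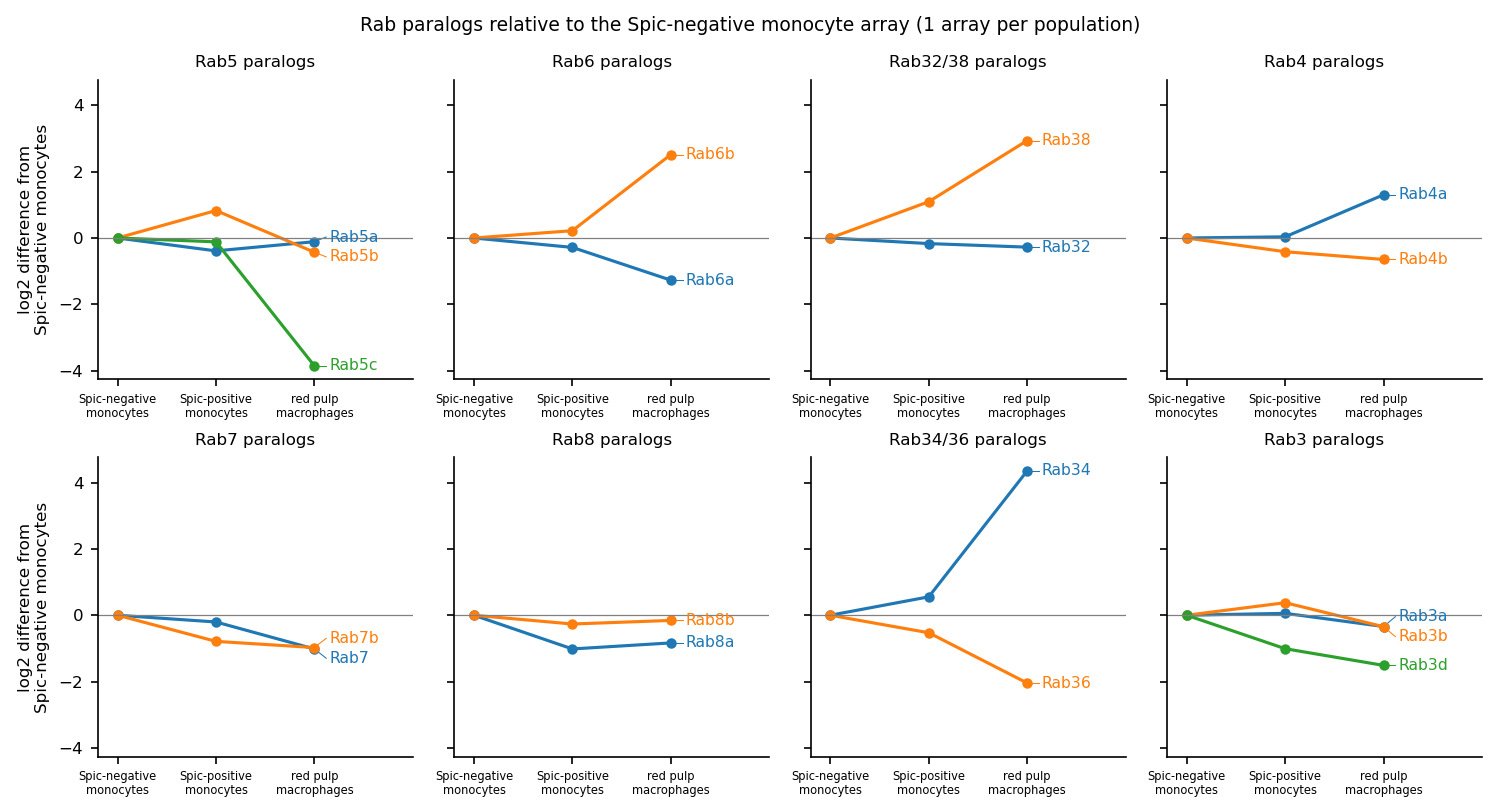
Log2 difference from Spic-negative monocytes for close relatives among Rab genes, with 1 point per array joined by lines for reading only. Levels are plotted as deposited, so the points of Rab6b, Rab34 and, only just, Rab4a (5.00) start from Spic-negative monocyte levels below the floor. The Rab5b level in macrophages (4.73) also lies below it. Rab5c, Rab38, Rab4a and Rab6b part from their relatives in macrophages, and Rab7 and Rab7b stay together at -1.02 and -0.97.

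Further probe sets give a partial check on the measurement, though not on variation between animals, since they share the RNA. For the 14 Rab genes past 2-fold between macrophages and Spic-negative monocytes, 9 had further probe sets above the floor, 11 in all, of which 10 had the same sign, and 7 passed 2-fold that way with levels below the floor set to it. Between macrophages and Spic-positive monocytes all 6 further probe sets had the same sign, and 3 passed 2-fold that way at the floor. Between the monocyte arrays all 4 had the same sign, and 1 passed 2-fold. A further probe set was kept if it exceeded the floor on any array. The ones kept for Rab34, Rab37, Rab4a and Rab6b did so on the macrophage array alone, and that of Rab5b on the monocyte arrays alone. Their signs in the macrophage comparisons were thus fixed by this filter and give no support. Of these 14 genes, Rab20, Rab5c and Rab44 have 1 probe set each. Rab30 and Rab27a also rest on 1, as their further probe sets lay below the floor on every array.

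**Figure D5:**
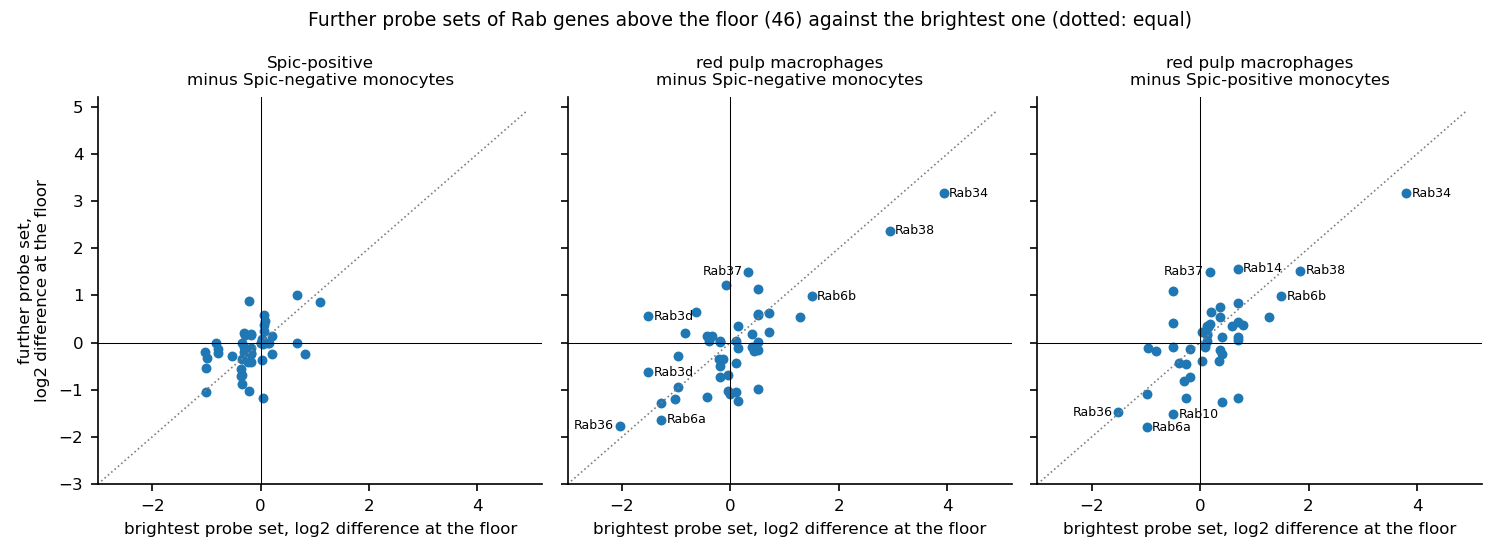
Log2 difference on each of 46 further probe sets above the floor (vertical axis) against that on the brightest probe set of the same Rab gene (horizontal axis), for 28 genes in 3 comparisons, with levels below the floor set to the floor and the dotted line marking equal values. In macrophages Rab34 (3.94 and 3.17 against Spic-negative monocytes) and Rab38 stand furthest out on both axes, Rab36 and Rab6a lie low on both, and Rab37 and Rab3d lie away from the line.

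The machinery that runs the Rab cycle was read from a fixed list of 112 genes, 106 of them above the floor. Between the monocyte arrays 2 of the 106 (1.89%) passed 2-fold upwards in Spic-positive cells and 5 (4.72%) downwards, beside 3.49% and 3.06% of all genes. Macrophages had 19 higher (17.9%) and 11 lower (10.4%) than Spic-negative monocytes, beside 19.6% and 11.3%, with a median of -0.09. They had 20 higher (18.9%) and 6 lower (5.66%) than Spic-positive monocytes, beside 22.0% and 11.6%, with a median of 0.24. Among 7 genes of prenylation and membrane cycling, 1 was higher and 1 lower in macrophages than in Spic-negative monocytes (14.3% each). Rabggtb, the catalytic subunit of the transferase that prenylates Rabs, was higher in macrophages than in Spic-negative monocytes by 1.73. Chml, an escort protein that presents Rabs to that enzyme, was lower, measuring log2 7.77, 7.07 and 4.84 on the 3 arrays.

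Of 32 exchange factor genes, 1 was higher (3.12%) and 4 were lower (12.5%) in Spic-positive monocytes than in Spic-negative ones, beside 3.49% and 3.06% of all genes. In macrophages 4 were higher (12.5%) and 5 lower (15.6%) than in Spic-negative monocytes, beside 19.6% and 11.3%. Rab3il1, an exchange factor for Rab8 and Rab3 proteins, measured log2 5.16, 6.44 and 10.41, so it was higher by 1.28 in Spic-positive monocytes and by 5.25 in macrophages than in Spic-negative monocytes. Rin2, an exchange factor for Rab5, was lower on both arrays of Spic-expressing cells, with 8.98, 6.96 and 7.39 in the same order. Dennd2a and Rab3ip differed by -1.35 and -1.20 between the monocyte arrays. Dennd5b and Sbf2 were higher in macrophages than in Spic-negative monocytes, by at least 1.95 against the floor and by 2.18, and Dennd4a, which acts on Rab10, and Sbf1 differed by -2.11 and -2.23.

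Of 33 GTPase-activating protein genes, 6 were higher (18.2%) and 4 lower (12.1%) in macrophages than in Spic-negative monocytes, near the 19.6% and 11.3% of all genes. In Spic-positive monocytes 1 was higher and 1 lower (3.03% each), near the 3.49% and 3.06% of all genes. Tbc1d4, known for restraining Rab10 in insulin-responsive cells, measured log2 5.32, 5.42 and 7.76. Usp6nl, which acts on Rab5, measured 7.24, 6.28 and 8.73, and Tbc1d7 was higher in macrophages than in Spic-negative monocytes by at least 1.80 against the floor. Tbc1d8 was brightest in Spic-positive monocytes, at 10.29, 11.58 and 9.15, Rabgap1l differed by -1.02 between the monocyte arrays, and Evi5 and Tbc1d10b differed by -1.42 and -1.12 between macrophages and Spic-negative monocytes. Of 34 effector genes 0 passed 2-fold between the monocyte arrays, beside 3.49% and 3.06% of all genes, and 8 were higher (23.5%) and 1 lower (2.94%) in macrophages than in Spic-negative monocytes, beside 19.6% and 11.3%. Osbpl1a, an effector of Rab7 that senses cholesterol, measured 5.09, 5.08 and 7.58. Micall2, an effector of Rab13, and Rilpl1, a relative of RILP, were higher in macrophages by at least 1.91 against the floor and by 2.36, and Rab11fip1, an effector of Rab11, was lower, with -1.14.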

How the data were processed

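The authors deposited log2 values, 1 per probe set and array, and the submitters' processing notes name RMA, a method that corrects background, aligns the arrays by quantiles and summarises the probes of a set. No version is stated. The log2 scale was taken from the values, which ran from 1.82 to 14.50 with no centring of genes. Labelled cRNA came from 2 rounds of amplification, per the labels' protocols. Quantile normalization hides differences in total RNA per cell.

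Of 45101 probe sets, 64 controls were left out, the platform annotation gave 34945 a single symbol, 932 had more and named no gene, and 9160 were unnamed here. Symbols were updated by gene identifier for 34741. The floor was the median level without controls. Array medians were 5.01, 5.08 and 4.96 in Spic-negative monocytes, Spic-positive monocytes and macrophages. The number of arrays limits the precision: with 1 per group, no test was run, and the 2-fold counts are set beside the same count over all genes. All Rab genes of the rule could be named, with levels for those past 2-fold and their relatives, and of the machinery lists the 3 largest differences per direction. Members and lists were chosen with earlier results of these data known. The counts and medians of the Rab genes, and the genes past 2-fold, were recomputed under 9 other choices of probe sets, scaling, floor and fold. The same values were recomputed under 1 choice made after seeing the data, with levels below the floor set to it. Counts of the machinery lists and of the sites of action, and the 4-fold shares, were not recomputed. Promoters came from RefSeq. Cyclic loess came from limma 3.58.1 in R 4.3.3, the rest was computed in Python 3.11.15 with pandas 2.3.3, numpy 2.4.6 and matplotlib 3.10.9, and the counting was tested on simulated data.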

Additional observations from a re-analysis of the deposited data

How the results depend on the processing

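With 1 array per group no spread is known, so a count was taken as moved past 1.5 times and a median past 0.1 on the log2 scale; the causes were not tested unless the setting itself changes the number of genes. Between the monocyte arrays, the counts of 2 Rab genes higher and 3 lower became 1 and 1 with the mean and 1 and 1 with the median of a gene's probe sets, and the lower count became 0 with quantile normalization again and 0 with cyclic loess. The shares of all genes were 2.63% and 2.10% with the mean and 2.86% and 3.28% with the median. The lower share was 2.36% with quantile normalization again and 2.10% with cyclic loess. With a floor at the 75th percentile, which leaves 38 Rab genes, macrophages had 4 higher than Spic-negative monocytes, with a median of -0.18, and 3 higher than Spic-positive monocytes. The shares of all genes that were higher at that floor were 22.0% and 26.3%. Counting from 1.5-fold gave 5 higher and 7 lower between the monocyte arrays, 11 and 11 for macrophages against Spic-negative monocytes, and 12 and 8 against Spic-positive monocytes. Beside these, 10.4% of all genes were higher and 12.6% lower between the monocyte arrays. The shares were 29.5% and 22.1% for macrophages against Spic-negative monocytes, and 33.4% and 24.5% against Spic-positive monocytes. The median of Rab genes for macrophages against Spic-positive monocytes was 0.26 with arrays centred on their medians and -0.066 with quantile normalization again, while that of all genes moved from 0.10 to 0.23 and -0.03. No difference past 2-fold changed sign under the alternatives run. Of 5, 14 and 11 genes past 2-fold in the 3 comparisons, 4, 3 and 3 fell under it in at least 1 setting. These were Rab38, Rab33b, Rab8a and Rab3d between the monocyte arrays, Rab3d, Rab7 and Rab37 for macrophages against Spic-negative monocytes, and Rab5b, Rab13 and Rab39 against Spic-positive monocytes. Rab27a was compared in 7 settings only. With the mean or the median of its probe sets it fell below the floor on every array and was left out, so its difference is not known to hold there. No paired analysis was possible because each group had 1 array. Levels near the floor limit Rab13, Rab37, Rab39 and Rab5b.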

Other observations

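Several Rab genes that stayed within 2-fold on their brightest probe set had a dimmer one, still above the floor, that passed 2-fold between macrophages and Spic-negative monocytes. For Rab11b, a recycling Rab, a dimmer probe set gave -1.23 where the brightest gave 0.15, and for its relative Rab11a the values were -1.09 and -0.01. Rab10, which delivers cargo to the plasma membrane, gave -1.15 and -0.42, and Rab43, a Golgi Rab, gave -1.02 and -0.04. Rab12, which acts between endosomes and lysosomes, gave 1.21 and -0.08. Between the monocyte arrays, a dimmer probe set of Rab11b gave -1.18 where the brightest gave 0.05, and one of Rab7 gave -1.02 where the brightest gave -0.20. These probe sets were picked after their values were seen, and what they report apart from the brightest ones was not tested.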
